A study of Mus musculus with 2 samples.

Results

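The natriuretic peptide system was followed as 8 genes chosen by symbol: the hormone genes Nppa, Nppb and Nppc, the receptor genes Npr1, Npr2 and Npr3, and the protease genes Corin and Furin. All 8 were found among the 55348 gene entries of the count tables, and 7 had a mean of at least 1 CPM (reads scaled to a common library size of 1000000), the level above which 14716 entries were called measured. RNA had been sequenced from whole mouse hearts at E13.5, strain 129sv, in 1 library from wild-type embryos and 1 library from embryos homozygous for the Lmna mutation H222P (Lmna H222P/H222P). H222P is a missense change in the gene of lamins A and C, present in every cell of the animal, and it is used as a mouse model of LMNA cardiomyopathy. The labels did not say how many hearts or litters went into a library. With 1 library per genotype no difference below has a replicate check, no p-value can be given, and each 95% interval covers counting error only.

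The atrial natriuretic peptide (Nppa) and the B-type peptide (Nppb) are hormones of heart muscle cells. In the embryo Nppa is made in the atria and in the trabeculae of the ventricles, and Nppb mostly in the trabeculae. Both act through Npr1, a receptor that is itself a guanylyl cyclase and makes cGMP inside the target cell. The C-type peptide (Nppc) acts through the related cyclase Npr2, and Npr3 lacks the cyclase and clears all 3 hormones. Corin, a membrane protease of heart muscle cells, cuts the Nppa precursor, and Furin, a protease of the secretory pathway in most cells, cuts the Nppb and Nppc precursors.

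The hormones share a ring closed by a pair of cysteines, which is the part that binds the receptors. The coding stretch of that ring is shown for Nppb and Nppc, since the ring is what joins hormones with different receptors in 1 family. It was read from the GENCODE M21 transcripts (GRCm38), from the first to the last cysteine codon, and capitals mark those 2 codons.
Nppb: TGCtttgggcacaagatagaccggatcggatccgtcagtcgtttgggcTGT
Nppc: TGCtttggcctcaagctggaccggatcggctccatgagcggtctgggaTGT
Each stretch is 51 bases, or 17 codons. Nppb and Nppc shared 40 of the 51 bases and 13 of 17 encoded amino acids. The Nppc ring ends at the stop codon, 3 bases before the end of the reading frame, whereas 21 bases follow the ring in Nppb.

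The libraries differed in depth and in genes of other tissues. With 1 library per genotype such tissue differences cannot be told apart from an effect of the mutation. Gene counts summed to 32669225 reads for wild type and 25120790 for H222P. Lmna had 2068 and 1865 reads, and a missense mutation need not change the amount of transcript, so these values do not check the labels. The 12 genes of a cardiomyocyte core list were all measured in both libraries, at a summed 23185 CPM in wild type and 13409 CPM in H222P. Of 10 hepatocyte genes 10 were at least 1.5-fold higher in H222P (summed 31.8 and 5967 CPM), as were 8 of 9 genes of erythroid precursors (217 and 1565 CPM) and 4 of 7 measured neural genes (21.7 and 50.03 CPM). No gene of these 3 lists was at 0 in either library, and 10.9% of all measured genes were at least 1.5-fold higher. Several of them, such as the hepatocyte gene Ambp (0.0323 and 85.3 CPM), passed the 1 CPM filter only through H222P. Of 8 lung bud and foregut genes 4 were at least 1.5-fold lower and 1 higher, with 381 and 161 reads for Nkx2-1 and 451 and 1543 for Foxf1. The lowest gene of that list had 211 reads in wild type and 1 in H222P (log2 ratio −6.91). The part of other tissues in the values below was not tested.

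Of the 7 measured members, 5 were at least 1.5-fold lower in the H222P library: both heart hormones, the receptors Npr1 and Npr3, and Corin. Among all measured genes 11.4% were lower by as much. No measured member was at least 1.5-fold higher, against 10.9% of all measured genes. Nppa and Nppb were more than 2-fold lower, a size reached by 4.35% of measured genes. The median log2 ratio of the 7 members, H222P over wild type, was −0.79, beside −0.01 for all measured genes. Npr2 and Furin lay within 1.5-fold. With total counts in place of TMM scaling, 7.79% of all measured genes were at least 1.5-fold lower and 15.1% higher, their median moved to 0.14, and 4 members were lower, with Npr3 at −0.55.

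**Figure D1:**
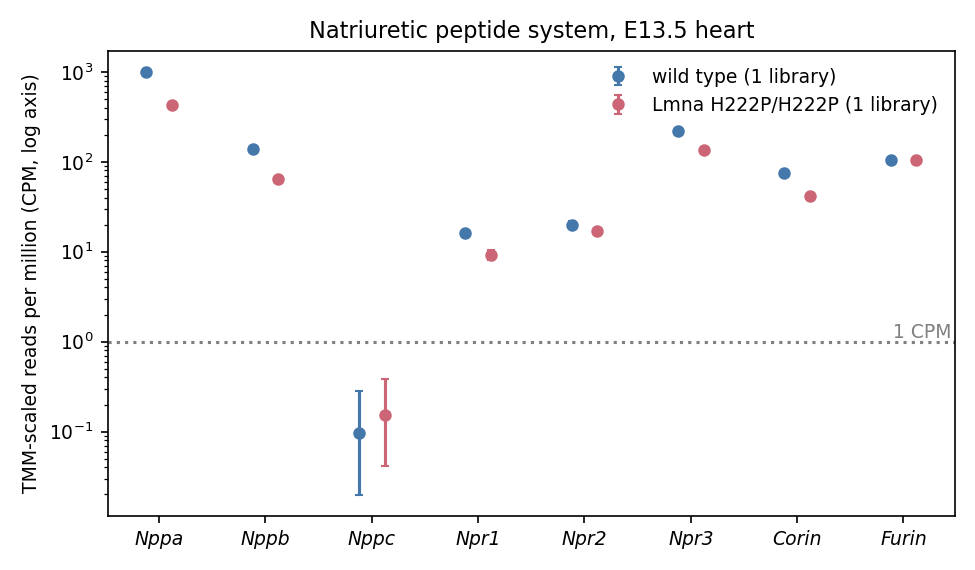
Scaled CPM (log axis) of the 8 genes in the wild-type library (blue) and the Lmna H222P/H222P library (red), 1 library each, with exact Poisson 95% intervals that are often smaller than the point. The red point lies below the blue one for Nppa, Nppb, Npr1, Npr2, Npr3 and Corin, the 2 points of Furin are level, and Nppc lies under the 1 CPM line in both.

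Nppa (chromosome 4, 148000722 to 148002079, plus strand, mm10, ENSMUSG00000041616.9) was the most abundant member. It had 30582 wild-type reads and 11319 H222P reads, or 987 CPM (976 to 998) and 427 CPM (420 to 435). The H222P level was 2.31-fold lower (2.26 to 2.36). A lower ratio was found for 417 of the 14716 measured genes. Counted per kilobase of exon, so that genes of different length can be compared, Nppa ranked 24th of 14551 measured genes with a known length in wild type and 50th in H222P.

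Nppb (chromosome 4, 147985788 to 147987205, plus strand, ENSMUSG00000029019.8) had 4303 reads in wild type and 1683 in H222P. These are 139 CPM (135 to 143) and 63.5 CPM (60.5 to 66.7), a 2.19-fold lower level (2.07 to 2.31). The interval overlaps that of Nppa, so counting error alone does not separate the sizes of the 2 differences. The libraries held 7.11 reads of Nppa per read of Nppb in wild type (6.88 to 7.34) and 6.73 in H222P (6.39 to 7.08). The pair was thus lower by nearly the same factor, and its per-length ranks were 233rd and 502nd for Nppb.

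Nppc (chromosome 1, 86666291 to 86670571, minus strand) was hardly detected, with 3 reads in wild type and 4 in H222P. Its log2 ratio of 0.59 has an interval from −1.92 to 3.41, so no difference was detectable at this depth. The ligand of Npr2 was therefore near the detection floor in both libraries, where 3 reads are worth 0.097 CPM in wild type and 0.113 CPM in H222P.

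Among the receptors, the cyclase receptor of the 2 heart hormones was lower and that of the C-type peptide less so. Npr1 (chromosome 3, 90450591 to 90465866) had 497 and 246 reads, or 16.0 CPM (14.7 to 17.5) in wild type and 9.29 CPM (8.16 to 10.5) in H222P. It was 1.73-fold lower (1.48 to 2.02), and the near end of the interval lies just inside 1.5-fold. Npr2 (chromosome 4, 43631935 to 43651244) had 621 and 445 reads, or 20.0 CPM (18.5 to 21.7) and 16.8 CPM (15.3 to 18.4). It was 1.19-fold lower (1.05 to 1.35). The reads of Npr1 per read of Npr2 were 0.800 in wild type (0.710 to 0.902) and 0.553 in H222P (0.471 to 0.647), intervals that do not overlap.

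The clearance receptor Npr3 (chromosome 15, 11839896 to 11907287) was the most abundant receptor per kilobase of exon. It had 6865 reads in wild type and 3613 in H222P, or 221.6 CPM (216 to 227) and 136 CPM (132 to 141). The level in H222P was 1.62-fold lower (1.56 to 1.69). Reads of Npr3 per read of Npr1 were 13.8 (12.6 to 15.2) and 14.7 (12.9 to 16.8), with overlapping intervals. In the fetal heart Npr3 is known from the endocardium, the inner lining. In a list of 10 endocardial and endothelial markers 6 were also at least 1.5-fold lower, beside 11.4% of all measured genes. The list median was −0.64, beside −0.70 for Npr3. The highest gene of the list, Nfatc1, was at 0.05 (−0.10 to 0.20). Per 1000 reads of that list there were 219 reads of Npr3 in wild type (214 to 225) and 207 in H222P (199 to 214).

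The 2 proteases differed from each other. Corin (chromosome 5, 72300025 to 72504473) had 2328 reads in wild type and 1094 in H222P, or 75.1 CPM (72.1 to 78.2) and 41.3 CPM (38.9 to 43.8). It was 1.82-fold lower (1.69 to 1.96). Furin (chromosome 7, 80388585 to 80405436) had 3255 and 2774 reads, or 105.1 CPM (101.5 to 108.7) and 104.7 CPM (100.9 to 108.7), with a log2 ratio of −0.00 (−0.08 to 0.07). Furin stood at the middle of all genes, with 7420 of 14716 below it. The reads of Nppb per read of Furin were 1.32 in wild type (1.26 to 1.38) and 0.607 in H222P (0.571 to 0.645), and the reads of Nppa per read of Corin 13.1 (12.6 to 13.7) and 10.3 (9.72 to 11.02).

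**Figure D2:**
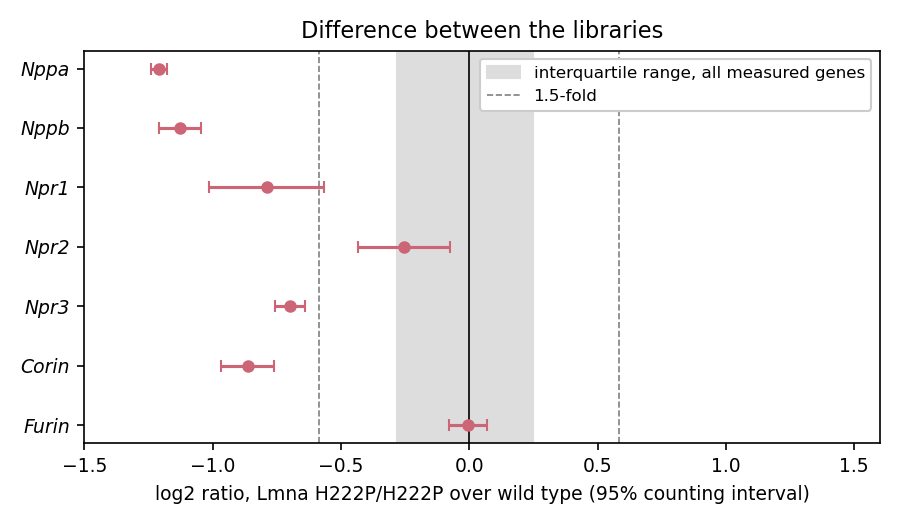
log2 ratio (Lmna H222P/H222P over wild type, x axis) of the 7 measured genes, with exact 95% counting intervals, over the interquartile range of all measured genes (grey band, −0.28 to 0.25) and dashed lines at 1.5-fold. The points of Nppa (−1.21), Nppb (−1.13), Corin (−0.86), Npr1 (−0.79) and Npr3 (−0.70) lie left of the dashed line, while Npr2 (−0.25) and Furin (−0.00) lie in the band.

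Per kilobase of exon the order of the genes in wild type was Nppa (1141 CPM per kilobase), Nppb (178), Npr3 (23.6), Corin (13.9), Furin (11.4), Npr2 (4.29), Npr1 (3.35) and Nppc (0.093). No neighbours in that order had overlapping counting intervals. In H222P the order was Nppa (494), Nppb (81.4), Npr3 (14.5), Furin (11.4), Corin (7.65), Npr2 (3.60), Npr1 (1.94) and Nppc (0.145), again with no overlap between neighbours. Corin and Furin changed places between the libraries, a step that depends on the length used: with the longest transcript in place of all exons Furin stood above Corin in both.

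Lists of other cell types of the heart varied in the same library, from mostly lower to evenly split. Of the 12 cardiomyocyte core genes 10 were at least 1.5-fold lower and none was higher (median log2 ratio −0.85). Among all measured genes 11.4% were lower and 10.9% higher by as much, and the epicardial count below was near that share. Of 8 valve and fibroblast genes 5 were lower and 2 higher (median −0.93), from −1.82 for the collagen gene Col1a1 to 1.26 for the receptor gene Pdgfra. Epicardial genes had 1 of 7 lower and none higher (median −0.36), smooth muscle genes 2 of 8 lower and 1 higher (median −0.32), and cartilage genes 2 lower and 2 higher of 4 measured (median −0.01). In whole hearts, fewer cells of a type, less RNA per cell and a different share of other tissue cannot be told apart. Set against the cardiomyocyte core list, the members separated. Nppa had 42.6 reads per 1000 reads of the core list in wild type (42.1 to 43.1) and 31.9 in H222P (31.3 to 32.5), and Nppb 5.99 (5.81 to 6.17) and 4.74 (4.51 to 4.97). Both hormones were therefore lower than the core list as a whole, by 0.42 and 0.34 on the log2 scale.

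Corin, itself a gene of heart muscle cells, had 3.24 reads per 1000 reads of the core list in wild type (3.11 to 3.38) and 3.08 in H222P (2.90 to 3.27), with overlapping intervals. Npr1 had 0.692 (0.632 to 0.755) and 0.693 (0.609 to 0.785). Npr3, Npr2 and Furin were higher relative to the list, at 9.56 and 10.2 for Npr3, 0.864 and 1.25 for Npr2, and 4.53 and 7.81 for Furin. Npr2 and Npr3 were thus lower against the whole transcriptome and higher against the core list, and Npr1 did not differ detectably from that list. Most genes were higher against the core list, with a median of 0.78 over all measured genes and 69.4% at least 1.5-fold higher. Beside that median Npr3 (0.09) and Npr2 (0.54) were lower, and Furin (0.79) was level with it. Core genes ranged from −1.62 (Tnni3, cardiac troponin I) to −0.17 (Myh6, alpha myosin heavy chain), so single core genes lay on both sides of Nppa and Nppb.

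Nppa and Nppb are commonly read as markers of heart chambers and of mechanical load. In a list of load-linked and fetal-programme genes, 8 of 9 measured members were at least 1.5-fold lower, beside 11.4% of all measured genes. None was higher, and the list median was −1.11, beside −0.01 for all measured genes. The most abundant of the list was Myh7, the slow myosin heavy chain (6896 and 3276 CPM, log2 ratio −1.07). The lowest was Fhl2, a LIM-domain protein of the sarcomere, at −1.31 (−1.39 to −1.23). The exception was Acta1, the skeletal actin gene that is re-expressed in hypertrophy, with 177 and 183 CPM and a log2 ratio of 0.05 (−0.01 to 0.10). Muscle lists not chosen for load were lower too. They had 10 of 12 cardiomyocyte core genes (median −0.85) and 7 of 8 ventricular markers (median −1.07, Myh7 included) at least 1.5-fold lower. With the core list as reference 0 load-linked genes were lower and 1 was higher, beside 2.00% and 69.4% of all measured genes.

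Over all measured genes 11.4% were at least 1.5-fold lower and 10.9% higher. Of 8 trabecular markers 4 were lower by as much and none was higher (median −0.50). Smpx, a small muscle protein, was the most abundant and the lowest of them, at −1.48. Ventricular markers had 7 of 8 lower (median −1.07), with phospholamban (Pln) lowest at −1.63 and Mpped2 highest at 0.12. Atrial markers were spread widely, with 4 of 9 lower and 1 higher (median −0.17), from −2.98 for sarcolipin (Sln) to 0.63 for the atrial transcription factor Nr2f1. Nppa and Nppb, at −1.21 and −1.13, lay nearer to the ventricular median than to the trabecular or the atrial one. Single markers of each list lay on both sides of the 2 genes.

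**Figure D3:**
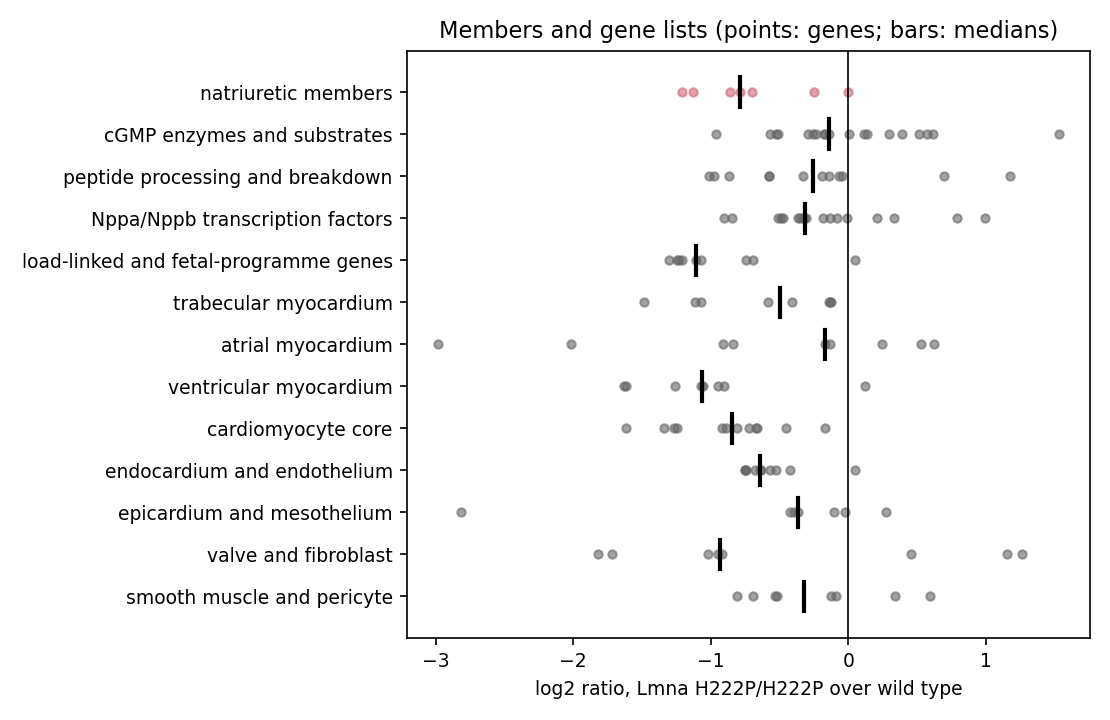
log2 ratios (Lmna H222P/H222P over wild type, x axis) of the 7 measured members (top row, red) and of the measured genes of 12 lists (grey points), with a black bar at each median. The medians of the members (−0.79), of the load-linked list (−1.11), of ventricular markers (−1.07) and of the cardiomyocyte core (−0.85) lie well to the left of the cGMP list (−0.14).

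Downstream of the receptors lies the cGMP machinery. Of 26 listed cyclases, phosphodiesterases, kinases and substrates 19 were measured, and 1 was at least 1.5-fold lower, 2 were higher and 16 lay between (median −0.14, with 10 of 19 below 0). Among all measured genes 11.4% were lower and 10.9% higher by as much. The one lower gene was Pde1c, a calcium-activated phosphodiesterase, with 518 and 227 reads and a log2 ratio of −0.96 (−1.20 to −0.74). The higher genes were the dual phosphodiesterase gene Pde10a (0.62, 0.27 to 0.97) and the channel gene Trpc6 (65 and 161 reads; 1.53, 1.11 to 1.97), whose channel is inhibited through the cGMP kinase.

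The cGMP-specific phosphodiesterase gene Pde5a had 2179 and 2439 reads (0.39, 0.30 to 0.47), and the natriuretic-linked Pde9a 229 and 240 reads (0.29, 0.03 to 0.56). The nitric oxide-sensitive cyclase is made of an alpha and a beta subunit: Gucy1b1 stood at −0.57 (−0.65 to −0.49), just inside 1.5-fold, and Gucy1a1 at −0.26 (−0.32 to −0.20). Prkg1, the main cGMP-dependent kinase of the cardiovascular system, had 1551 and 919 reads and stood at −0.53 (−0.65 to −0.41). Its substrates Vasp (−0.17) and Ppp1r12a (−0.23) lay close to 0. Mrvi1, also called Irag1, which couples the kinase to calcium release, was at 0.57 (0.41 to 0.73). Pde2a had 0 reads in both libraries. A count of 0 need not mean no transcript. Reads that fitted more than 1 gene, 997118 in wild type and 728890 in H222P, were left out, and their part in this count was not tested.

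Among genes of peptide processing, secretion and breakdown 12 of 22 were measured (median −0.26). Of these 3 were at least 1.5-fold lower and 2 higher, beside 11.4% and 10.9% of all measured genes. The most abundant of the 12 was Pam, an amidating enzyme that is a major membrane protein of atrial secretory granules. It had 52858 reads in wild type and 22341 in H222P, or 1706 and 843 CPM, a log2 ratio of −1.02 (−1.04 to −0.99). Ide, the insulin-degrading enzyme that also cleaves natriuretic peptides, was at −0.87 (−0.95 to −0.79), and Dpp4, a peptidase that trims the B-type peptide, at −0.98 (−1.08 to −0.87). Neprilysin (Mme), the main peptidase that breaks down the hormones, had 954 and 547 reads and stood at −0.58 (−0.73 to −0.42), at the edge of 1.5-fold.

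Furin belongs to a family of proprotein convertases, whose other members varied. Pcsk6, which activates corin, was at −0.19 (−0.40 to 0.02), Pcsk5 at −0.14 (−0.27 to −0.01) and Pcsk7 at −0.33 (−0.49 to −0.17). Pcsk1 and Pcsk2 were under a mean of 1 CPM, with 4 and 5 reads for Pcsk1 and 2 and 30 for Pcsk2. Pcsk4, with 20 and 39 reads and a log2 ratio of 1.17 (0.38 to 2.05), and the protease inhibitor gene Spint1, with 54 and 75, were the 2 higher genes. Pcsk4, at 0.645 CPM in wild type and 1.47 CPM in H222P, passed the filter only through the library where it was higher. The neuroendocrine granule genes Chga, Chgb, Scg2 and Scg5 were all under a mean of 1 CPM. Ostn, which encodes another ligand of Npr3, had 0 reads in both libraries, a count with the same limit as that of Pde2a.

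All 18 transcription factors of a list known to act on Nppa or Nppb were measured, with 2 at least 1.5-fold lower, 2 higher and 14 between (median −0.32). Both counts were near the shares of all measured genes, 11.4% lower and 10.9% higher. The activators Gata4 (−0.31), Tbx5 (−0.13), Srf (−0.37), Mef2c (−0.35) and Nkx2-5 (−0.47) lay within 1.5-fold. The lower genes were Mef2a (−0.85, −0.90 to −0.79) and Hey2, a repressor of the compact ventricular wall (−0.91, −0.99 to −0.82). Tbx3, which represses Nppa in the conduction system, had 428 and 730 reads and was 1.99-fold higher (1.77 to 2.25), and Nfatc4 had 626 and 926 reads (0.79, 0.64 to 0.94). The repressors Rest (0.20), Jarid2 (0.33) and Tbx2 (−0.01) lay within 1.5-fold.

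Nppb and Nppa are neighbours, with starts 14.9 kb apart on chromosome 4. Among 9 protein-coding genes around the pair, all of them measured, 1 was at least 1.5-fold lower and 1 higher (median 0.02). Over all measured genes the shares were 11.4% and 10.9%. Clcn6, the next gene after Nppa, a chloride/proton exchanger, had 757 and 740 reads (0.19, 0.05 to 0.34). On the other side 2510039O18Rik had 1705 and 1424 reads (−0.03, −0.14 to 0.07). The lower neighbour was the mitochondrial fusion gene Mfn2 (5590 and 3091 reads, −0.63, −0.69 to −0.56), and the higher one Draxin, an axon guidance gene with 15 and 62 reads (2.24, 1.44 to 3.19). Draxin, at 0.484 CPM in wild type and 2.34 CPM in H222P, passed the filter only through the library where it was higher. The values of the pair lay below those of all 9 neighbours.

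**Figure D4:**
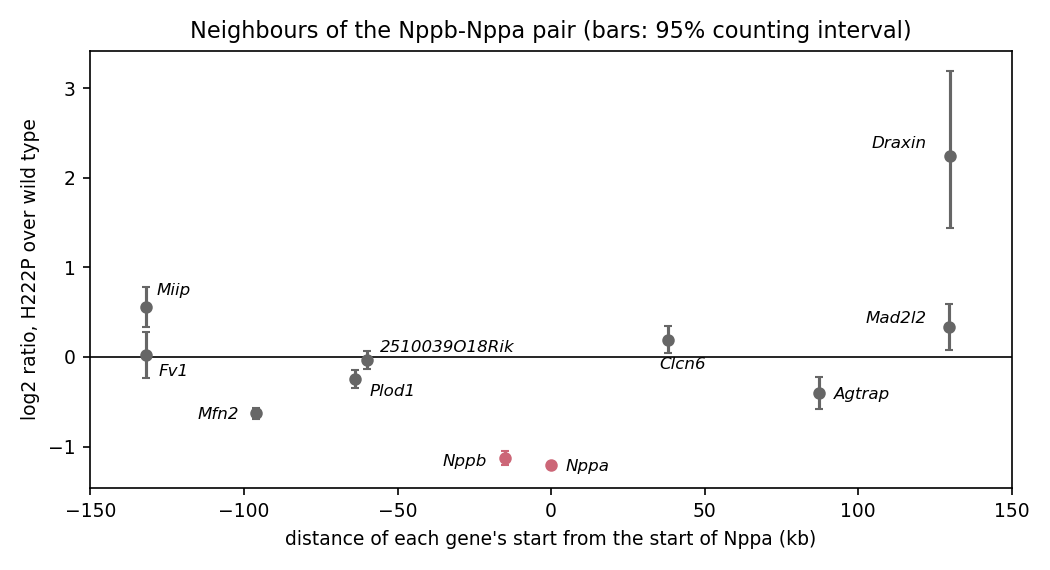
log2 ratio (Lmna H222P/H222P over wild type, y axis) of Nppa and Nppb (red) and of 9 protein-coding genes around them (grey) against the distance of their starts from that of Nppa (kb), with 95% counting intervals. Nppa and Nppb lie at −1.21 and −1.13, below their neighbours, which range from −0.63 (Mfn2) to 2.24 (Draxin).

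The 2 genes sit side by side and were lower together, so the sequence before each start is shown, from the RefSeq promoter table (GRCm38.p6). The Nppa stretch is chr4:148000472-148000721, plus strand, the 250 bases before its start. The Nppb stretch is chr4:147985650-147985787, plus strand, 138 bases that end where GENCODE places its start. RefSeq places the Nppb start further on, at 147985900, and the bases between these starts were not searched. Capitals mark matches, on either strand, to short motifs: GATAA (GATA factors), AAGTG (Nkx2-5), GGTGT (T-box factors), CATTCC (TEAD factors) and TATAAA (the TATA box), besides the CArG box of Srf and the MEF2 box.
Nppa: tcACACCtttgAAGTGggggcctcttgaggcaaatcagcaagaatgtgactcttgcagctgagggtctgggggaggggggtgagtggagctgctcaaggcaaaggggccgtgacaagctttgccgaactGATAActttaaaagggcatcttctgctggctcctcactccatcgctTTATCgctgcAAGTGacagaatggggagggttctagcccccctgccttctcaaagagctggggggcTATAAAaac
Nppb: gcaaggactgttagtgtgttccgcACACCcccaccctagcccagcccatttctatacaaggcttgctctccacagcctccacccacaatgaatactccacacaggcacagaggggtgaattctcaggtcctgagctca
The Nppa stretch held 2 matches to GATAA, 2 to AAGTG, 1 to GGTGT and 1 to TATAAA, and none overlapped another. Of 32817 promoter windows of that length 22.6%, 40.7%, 36.2% and 12.4% held these motifs. The Nppb stretch held 1 match, to GGTGT, which 22.5% of windows of its length held. These shorter windows are the first 138 of the 250 bases before each RefSeq start, so they do not reach that start. CATTCC, the CArG box and the MEF2 box matched in neither stretch, beside 12.6%, 1.47% and 0.509% of the longer windows and 7.50%, 0.722% and 0.222% of the shorter ones. A match is a run of letters, not a measured binding site.

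Nppa is overlapped by a gene on the opposite strand, and its count depends on keeping the strands apart. The antisense gene Gm13054 (148001091 to 148004014, minus strand) covers 989 bases of Nppa, or 72.8% of the gene. The column that ignores strand held 2536 Nppa reads in wild type and 917 in H222P, only 8.29% and 8.10% of the stranded counts. A counter that ignores strand sets aside reads that lie in 2 genes, and 28066 wild-type and 10415 H222P reads lay opposite to Gm13054. On its own strand Gm13054 had 41 reads in wild type and 21 in H222P (1.32 and 0.793 CPM). The Nppa ratio itself was little affected, at −1.25 without strand and −1.21 with it. Nppb was untouched by the choice, with 4310 and 1684 reads without strand, and Npr3 and Furin nearly so. Other members lost some reads without strand. In wild type and H222P, Npr1 kept 77.5% and 76.0% of its stranded counts, Npr2 89.0% and 86.5%, and Corin 89.8% and 89.7%.

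Finally, genes with at least 50 CPM on average were ranked by how near their ratio lay to that of a member, a likeness over 2 libraries only. Nearest to Nppa among 4465 protein-coding genes were Mtus2 (−1.21), Fhl1 (−1.21), a LIM-domain protein of muscle, and Slmap (−1.20), a membrane protein of the sarcoplasmic reticulum region. Hmgn2 (−1.13), Capza1 (−1.12) and Fbxl22 (−1.12), a Z-disc F-box protein, lay nearest to Nppb. Afap1l1, Ppp1r3b and Klhl13, all at −0.70, lay nearest to Npr3.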

How the data were processed

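Counts are raw reads per gene, 1 deposited table per library, with 3 columns (both strands and each strand) and 4 summary entries, which hold 17.2% and 18.0% of reads and were left out. STAR, DESeq, HTSeq and build mm10 appear, with no version, in the submitters' processing notes. Annotation release and RNA selection are not given in the sources at hand. Reverse-strand reads, 19.3 and 20.5 times the forward ones, were used. Libraries were scaled with TMM factors (0.948 wild type, 1.05 H222P; edgeR 4.0.16, R 4.3.3). Log2 ratios used a prior count of 0.5. Intervals are exact, at 95%: Clopper-Pearson for ratios and Poisson for levels (scipy 1.17.1, Python 3.11.15). No molecular identifiers are described, so reads may repeat molecules and intervals cover counting error only. With 1 library per genotype no test was run, and a size of 1.5-fold at a mean of at least 1 CPM was used instead. Coordinates and exon lengths come from GENCODE M21 (GRCm38, the assembly of mm10). Reading frames and motifs were found with Biopython 1.88. The log2 ratio and its interval were tested on simulated Poisson counts with known ratios and library sizes. Scaling, list counts, gene lengths and motif searches were not part of that test. A few items around and within the lists are not reported here. The members, the 17 lists and the rules were chosen with earlier results of these data known. All 8 members were named. Every gene of the lists on cGMP, processing and transcription factors could be named, and of the others the most abundant, highest and lowest at 5 CPM or more, besides neighbours of the Nppb-Nppa pair and the 3 nearest genes by ratio. The alternatives tried were total counts, size factors from DESeq2 1.42.0, totals without liver and blood genes, the cardiomyocyte list as reference, the unstranded column, a prior count of 5, other filters, thinning, and another gene length.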

Additional observations from a re-analysis of the deposited data

Results flagged for a closer look

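Reads on the strand opposite to 6 of the 8 members were above the limit that a count of 0 allows (3 reads). Nppa had 51 such reads in wild type and 25 in H222P, and Npr3 had 64 and 35. Npr1 had 17 and 7, or 3.31% and 2.77% of its reads on both strands, the highest share among the members, beside 4.94% and 4.65% over all genes. Furin had 19 and 4, Corin 18 in wild type, and Nppb 7 in wild type.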

How the results depend on the processing

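With the cardiomyocyte core list as reference the median of all genes moved to 0.78. Of all genes 69.4% were at least 1.5-fold higher and 2.00% at least 1.5-fold lower. The member median was then 0.0032, with 0 members lower and 1 (Furin) higher; Npr1 was at 0.0032 and Npr3 at 0.090. The counts lower and higher were 0 and 12 for the cGMP list, 0 and 6 for processing, 0 and 8 for transcription factors, and 0 and 1 for load-linked genes. Total counts, and totals without hepatocyte, erythroid and globin genes, moved the median of all genes to 0.14 and 0.17 and left 4 members lower, since Npr3 stood at −0.55 and −0.52. The load-linked genes at least 1.5-fold lower were then 7 and 6. Of all measured genes 7.79% and 7.27% were at least 1.5-fold lower under these settings, and 15.1% and 15.9% higher. Furin was then at 0.15 and 0.17, and 4 cGMP genes were higher under each. With DESeq2 size factors 2 cGMP genes and 5 processing genes were lower, and with the deeper library thinned 5 processing genes. Of all measured genes 12.3% were lower with DESeq2 size factors and 11.5% with thinning. Raising the filter to 5 CPM left 1 cGMP gene and 0 processing genes higher, beside 7.11% of all genes past that filter. With no filter 1 member (Nppc) was higher, as were 4 cGMP, 6 processing and 1 load-linked gene, beside 24.0% of all genes in that setting. Nppa and Nppb stayed below 0 under all 9 alternatives, and at least 1.5-fold lower under all but the core list reference (−0.42 and −0.34). Nppc, at 3 and 4 reads, is limited by depth. No paired analysis was possible because each genotype has 1 library.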
